A study of Mus musculus with 4 samples.

Results

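The m6A writers and YTH readers studied here are 10 genes, chosen by name: Mettl3, Mettl14, Wtap, Virma and Zc3h13 of the methyltransferase complex, and the readers Ythdc1, Ythdc2, Ythdf1, Ythdf2 and Ythdf3. All 10 are among the 15733 protein-coding genes with deposited read counts, and all 10 passed the filter on low counts that kept 13793 genes for testing. The libraries are mRNA of mouse pachytene spermatocytes, meiotic prophase cells sorted by flow cytometry on Hoechst staining after a dissociated testis suspension had been held ex vivo for 12 h. The treated suspensions received 2.5 µM BMH21, a DNA-binding inhibitor of RNA polymerase I, and the control (mock) suspensions its solvent DMSO. Both groups held 2 libraries, called biological replicates in the labels, and neither strain nor age of the mice was given in them.

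Methylation of adenosine at its sixth nitrogen (m6A) is placed on mRNA in the nucleus by a complex in which METTL3 carries the catalytic site and METTL14 is its partner, which holds RNA but does not itself catalyse. WTAP, VIRMA and ZC3H13 belong to a regulatory part that holds the catalytic pair in nuclear speckles and directs it to its sites. The mark is read by proteins with a YTH domain, which binds methylated adenosine: YTHDC1 in the nucleus, where it acts in splicing and export, the 3 YTHDF proteins in the cytoplasm, known for mRNA decay and translation, and YTHDC2, an RNA helicase. In the mouse testis, loss of Mettl3, Mettl14 or Ythdc2 in germ cells leads to infertility, and YTHDC2 is needed, together with its partner MEIOC, for germ cells to leave the mitotic programme and go through meiotic prophase.

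The catalytic pair is shown first, as the core of the complex, in which Mettl14 was called lower and Mettl3 was not. These are the coding-strand stretches around the DPPW codons of Mettl3, the motif of the active site, and around the EPPL codons at the matching place of Mettl14, with those 12 bases in capitals and 8 codons on each side (GENCODE M21, GRCm38).
Mettl3: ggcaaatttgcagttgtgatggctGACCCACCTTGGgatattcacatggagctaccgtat
Mettl14: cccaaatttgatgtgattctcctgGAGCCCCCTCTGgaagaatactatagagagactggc
The Mettl3 stretch lies at chr14:52297557-52297616 on the minus strand, in exon 6 of the 11 of its longest coding transcript, and the Mettl14 stretch at chr3:123374781-123374840 on the minus strand, in exon 7 of 11.

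The 3 YTHDF readers are close paralogues, so the reads of one could in principle be counted for another. The longest run of residues encoded identically by all 3 covers 26 codons. Its coding bases are given here, with capitals at the 25 of 78 positions where the 3 genes do not share 1 base.
Ythdf1: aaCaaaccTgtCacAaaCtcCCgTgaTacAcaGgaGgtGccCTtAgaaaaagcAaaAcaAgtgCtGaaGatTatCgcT
Ythdf2: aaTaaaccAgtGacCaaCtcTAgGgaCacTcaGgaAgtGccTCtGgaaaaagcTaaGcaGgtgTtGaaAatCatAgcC
Ythdf3: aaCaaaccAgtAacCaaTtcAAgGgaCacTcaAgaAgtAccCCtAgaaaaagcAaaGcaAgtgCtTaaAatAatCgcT
These stretches lie at chr2:180910768-180910845 (minus strand, exon 5 of 6), chr4:132204213-132204290 (minus strand, exon 4 of 5) and chr3:16205266-16205343 (plus strand, exon 5 of 6). In this run Ythdf1 and Ythdf2 shared 73.1% of the bases, Ythdf1 and Ythdf3 78.2%, and Ythdf2 and Ythdf3 80.8%. Of all distinct stretches of 50 bases in their annotated transcripts, 0 of 3313 in Ythdf1 and 0 of 5457 in Ythdf3 occurred on either strand in a transcript of another gene. In Ythdf2 349 of 4662 (7.49%) did, most often in the predicted gene Gm6823.

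Total counts ran from 30964370 to 41548269 a library, and levels are given as CPM, counts relative to the library's total after TMM scaling. The 10 pachytene markers checked summed to 2113 and 2137 CPM in mock and to 2093 and 2110 CPM in BMH21, but single markers shifted both ways. Of the 10, 2 rose, Sycp3 to 1.38 and Sycp1 to 1.21 times the mock level. Another 4 fell: Piwil1 (0.897 times), Ccna1 (0.901), Pou5f2 (0.861) and Mybl1 (0.930). Over all genes tested edgeR called 16.5% higher and 12.5% lower. The histone gene H1f6 lay at or below 0.480 CPM in every library. The summed 8 spermatid markers took 231 to 233 CPM in mock and 241 to 242 CPM in BMH21, and edgeR called 0 of 8, with only Tnp1 at an unadjusted p under 0.05 (0.0452); the authors' deposited table gives 0 of them an adjusted p under 0.05. Of 8 spermatogonial markers 5 were tested and 2 fell, Kit and Zbtb16. The 7 spermatogonial markers among the listed genes summed to 18.2 to 19.3 CPM in mock and 15.0 to 17.2 CPM in BMH21. The summed level of the Sertoli, Leydig and macrophage lists was at most 2.48, 9.54 and 6.91 CPM in any library, with Star, a Leydig marker, called lower; 2 of 7 Sertoli, 3 of 5 Leydig and 4 of 4 macrophage markers were among the listed genes. The part of these shifts in the results was not tested.

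Of the 10 genes, 4 rose after BMH21 and 2 fell, at an adjusted p under 0.05 (quasi-likelihood test of edgeR, adjusted by Benjamini-Hochberg over all 13793 genes). By DESeq2 run here 3 rose and 1 fell, with Ythdf3 among the rises at an adjusted p of 0.0442. The authors' deposited DESeq2 values give Ythdf3 an adjusted p of 0.0531. Over all genes tested 16.5% were called higher and 12.5% lower, 29.1% in either direction, so calls were common in this comparison; by DESeq2 the shares were 13.6%, 9.12% and 22.8%. Under upper quartile scaling the split of all calls turned from 2282 higher and 1731 lower to 1805 and 2480. The largest rise was that of Ythdc2, to 1.89 times its mock level, followed by Wtap at 1.64 times, and Ythdf3 and Ythdf2 rose by small amounts. Mettl14 fell to 0.574 times its mock level and Zc3h13 to 0.724 times. The median log2 fold change was 0.07 over the 10 genes and 0.00 over all genes tested, and the median size, regardless of sign, was 0.26 against 0.18. As the RNA is bulk, fewer cells of a type and less RNA per cell cannot be told apart.

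**Figure D1:**
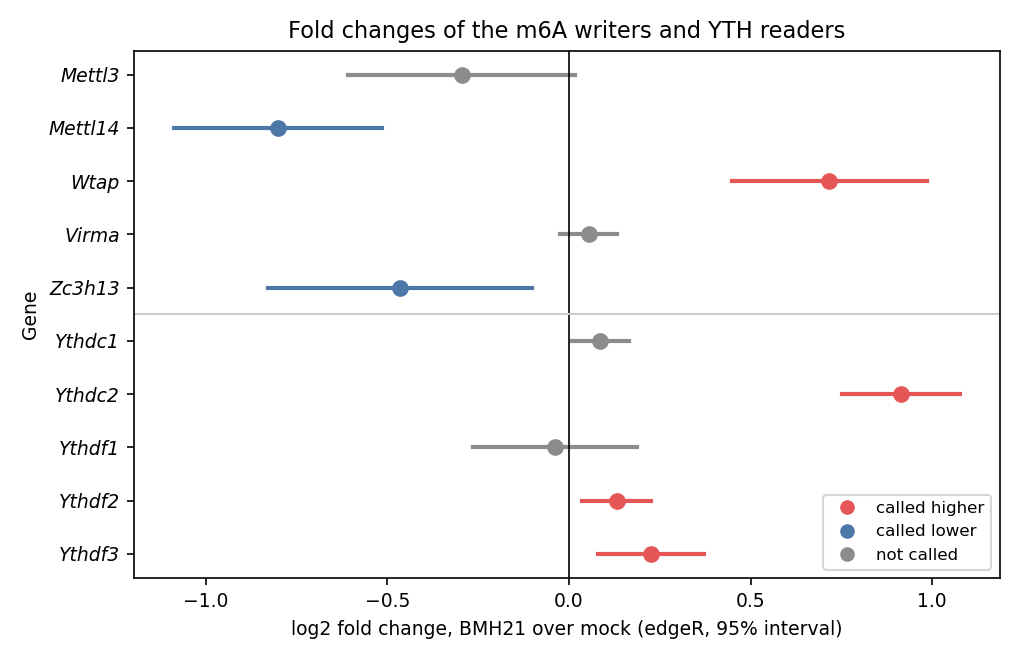
Log2 fold changes of the 10 genes, BMH21 over mock, from edgeR (x axis), with 95% intervals as bars; genes are rows, writers above the grey line and readers below. Ythdc2 (0.92) and Wtap (0.72) lie farthest to the right and Mettl14 (-0.80) farthest to the left. The intervals of Mettl3, Virma and Ythdf1 span 0.

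Among the writers the catalytic pair came first. Mettl3, which encodes the catalytic subunit (ENSMUSG00000022160.19, chromosome 14, 52294841 to 52305128 on GRCm38), was at 8.27 and 7.55 CPM in the mock libraries and at 6.88 and 6.05 CPM in the BMH21 libraries. Both BMH21 libraries were below both mock libraries, but the difference did not pass the test: the log2 fold change was -0.30 ± 0.16 (SE; 95% interval -0.61 to 0.02; edgeR adjusted p = 0.159). The interval thus runs from 0.656 to 1.01 times the mock level. In the annotation 18.4% of the merged exon bases of Mettl3 overlap Tox4, a gene of a chromatin-associated HMG-box protein on the opposite strand, and whether counting used strand is not known from the labels. Tox4, named after its values were seen, was at a mean of 25.1 CPM per kb of exon in mock, against 1.56 for Mettl3, and was not called (log2 fold change 0.04, edgeR adjusted p = 0.495). Whether its reads entered the Mettl3 counts was not tested.

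Mettl14, the RNA-binding partner (ENSMUSG00000028114.17, chromosome 3, 123368297 to 123386108), was at 10.6 and 11.8 CPM in mock and at 6.28 and 6.53 CPM in BMH21. The groups lay far apart compared with their spread, 11.2 ± 0.867 against 6.41 ± 0.178 CPM (SD, n = 2 each). Mettl14 fell by 0.80 ± 0.14 (SE) on the log2 scale, with an edgeR adjusted p of 6.57e-06. It kept its call in all 12 alternatives computed, between -0.88 and -0.72. No exon of another gene overlaps it in the annotation, and 0 of its 7229 distinct stretches of 50 bases occur in another gene's transcripts.

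Wtap, whose product anchors the pair in nuclear speckles (ENSMUSG00000060475.14, chromosome 17, 12966796 to 12994169), went the other way. It was at 7.56 and 8.93 CPM in mock and at 14.7 and 12.3 CPM in BMH21, both BMH21 libraries standing above both mock libraries. Wtap rose by 0.72 ± 0.13 (SE) on the log2 scale, from 8.24 ± 0.971 to 13.5 ± 1.73 CPM (SD, n = 2 each; edgeR adjusted p = 1.53e-05). It was called in all 12 alternatives, with log2 fold changes of 0.58 to 0.84. Of its distinct stretches of 50 bases 6.36% also occur on the same strand in transcripts of other genes, most often Gm14292.

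Wtap is the 1 strongly changed member for which sequence upstream of a RefSeq start site is printed. GENCODE M21 puts the 5′ end of this minus-strand gene at 12994169, so the window shown lies inside the GENCODE gene. The window holds the 250 bases before the RefSeq start site used (chr17:12992544-12992793 on GRCm38.p6, minus strand, given 5′ to 3′ on that strand). Matches to the motifs CCAAT and GGGCGG on either strand are in capitals.
Wtap: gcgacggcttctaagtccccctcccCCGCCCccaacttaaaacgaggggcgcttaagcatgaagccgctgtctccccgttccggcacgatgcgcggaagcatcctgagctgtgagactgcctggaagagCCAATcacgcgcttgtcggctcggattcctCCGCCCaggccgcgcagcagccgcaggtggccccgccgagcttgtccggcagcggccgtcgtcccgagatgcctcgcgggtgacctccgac
CCAAT, bound by NF-Y, occurred once, 121 bases before the start site, and GGGCGG, bound by Sp and KLF factors, occurred at 225 and 91 bases before it, each position being that of the motif's first base as printed. Of the 32851 RefSeq upstream windows of this length, 33.8% hold CCAAT and 32.7% GGGCGG, so both are common. No match to the TATA box TATAAA (in 12.4% of windows) or to the cAMP response element TGACGTCA (1.55%) was in this window. The matched motifs did not overlap, and a match describes letters and not a bound site.

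The other regulatory subunits were Virma and Zc3h13. Virma, the large scaffold of the regulatory part (ENSMUSG00000040720.16, chromosome 4, 11485958 to 11550684), was at 136 and 141 CPM in mock and at 142 and 144 CPM in BMH21. Both groups lay close together, and the log2 fold change of 0.05 ± 0.04 (SE; 95% interval -0.03 to 0.13) did not pass the test (edgeR adjusted p = 0.348). Its interval excludes a change beyond 1.10 times in either direction.

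Zc3h13, a zinc-finger protein that links WTAP to the rest of the complex (ENSMUSG00000022000.12, chromosome 14, 75284373 to 75344426), was the least counted of the 10 genes. It was at 6.01 and 6.72 CPM in mock and at 5.28 and 3.94 CPM in BMH21, from 146 to 252 counts a library, for which counting error alone is 6.30% to 8.28%. The BMH21 libraries were lower but also differed most from each other. Zc3h13 fell by 0.46 ± 0.18 (SE) on the log2 scale, at an edgeR adjusted p of 0.0461. The call was not stable. It was lost without mock replicate 2 (-0.38) or replicate 2 of BMH21 (-0.27), where the fall was smaller. It was also lost without mock replicate 1, where the fall was larger (-0.54) but less precise (SE 0.22). Without replicate 1 of BMH21 the value was -0.69. DESeq2 did not call Zc3h13 (-0.47, adjusted p = 0.172).

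Because these proteins act in 1 complex, the ratios of their mRNAs were set out per library, as counts per kb of merged exon. Mettl14 per Mettl3 was 0.875 and 1.07 in mock and 0.624 and 0.739 in BMH21. Wtap per Mettl3 was 0.742 and 0.960 in mock and 1.74 and 1.65 in BMH21. Both ratios separated the groups, the first downwards and the second upwards. Wtap per Mettl14 showed the widest separation of the 3 ratios plotted, at 0.848 and 0.898 in mock and 2.79 and 2.23 in BMH21, a log2 difference of 1.52. The ratios restate the fold changes of their genes, here the rise of Wtap (0.72) and the fall of Mettl14 (-0.80), and are no further result. With 2 libraries a group there are 6 arrangements, and the exact two-sided permutation test gave p = 0.333 for each of these 3 ratios, the smallest that it can give.

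**Figure D2:**
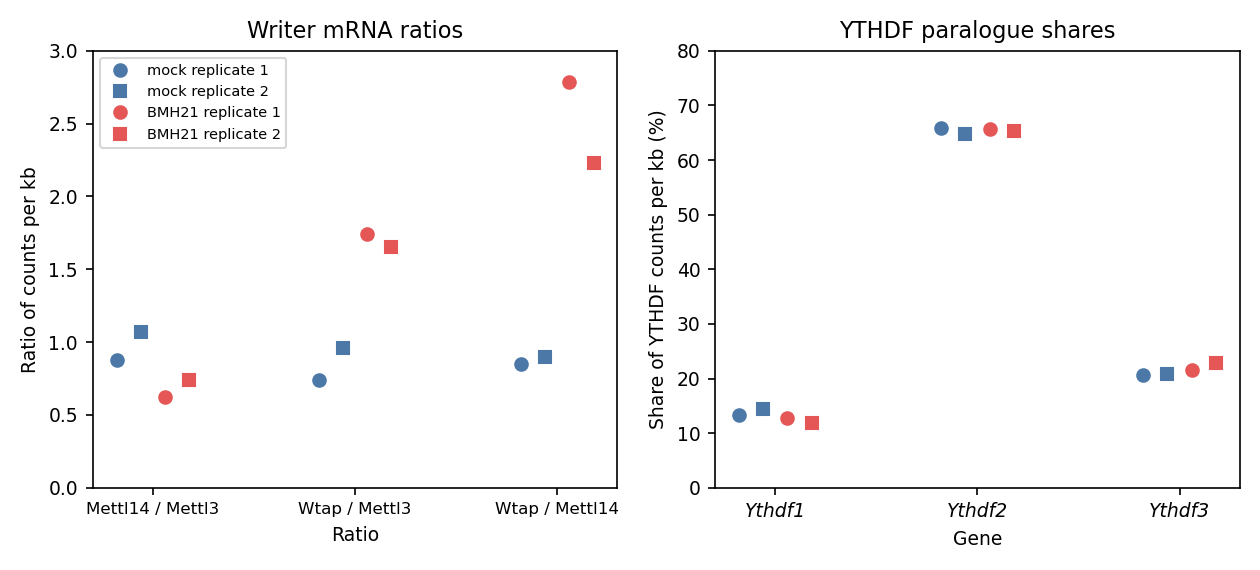
Left: ratios of counts per kb of merged exon between writer mRNAs (y axis) for each library. Right: the percentage of the summed YTHDF counts per kb taken by each paralogue in each library. Blue points are mock and red points BMH21, circles replicate 1 and squares replicate 2; Wtap per Mettl14 is 0.848 and 0.898 in mock and 2.79 and 2.23 in BMH21, while Ythdf2 stays between 64.8% and 65.9%.

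Of the nuclear and helicase readers, Ythdc2 changed most. Ythdc2 (ENSMUSG00000034653.12, chromosome 18, 44827746 to 44889724) was at 21.98 and 21.1 CPM in mock and at 40.5 and 40.8 CPM in BMH21. The replicates were nearly level within each group and the groups were wide apart, 21.5 ± 0.650 against 40.6 ± 0.232 CPM (SD, n = 2 each). It rose by 0.92 ± 0.08 (SE) on the log2 scale (edgeR adjusted p = 4.76e-15) and was called in all 12 alternatives, at 0.87 to 0.95. Of its distinct stretches of 50 bases, 0.702% occur in other genes' transcripts on the same strand.

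Ythdc1, the nuclear reader (ENSMUSG00000035851.15, chromosome 5, 86804221 to 86836659), was the most counted of the 10 genes, at 144 and 137 CPM in mock and 151 and 147 CPM in BMH21. The BMH21 libraries were slightly higher without overlap. In the annotation 4.62% of its merged exon bases overlap Gm43055, a long noncoding RNA gene on the same strand. Its log2 fold change of 0.09 ± 0.04 (SE; 95% interval 0.01 to 0.17) had an unadjusted p of 0.0321 and did not pass the test (edgeR adjusted p = 0.0943). Ythdc2 per Ythdc1, in counts per kb, was 0.235 and 0.237 in mock and 0.412 and 0.426 in BMH21, so Ythdc2 gained on its nuclear relative in both treated libraries (exact two-sided permutation p = 0.333, the smallest possible).

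The YTHDF readers moved little. Ythdf2, the paralogue best known for mRNA decay (ENSMUSG00000040025.18, chromosome 4, 132184912 to 132212303), was at 99.2 and 92.0 CPM in mock and at 107 and 102 CPM in BMH21. Ythdf3 (ENSMUSG00000047213.15, chromosome 3, 16183212 to 16217037) was at 36.5 and 34.7 CPM in mock and at 41.5 and 41.9 CPM in BMH21. In both genes the BMH21 libraries lay above the mock libraries. Ythdf2 rose by 0.13 ± 0.05 (SE) on the log2 scale (edgeR adjusted p = 0.0282) and Ythdf3 by 0.23 ± 0.07 (SE; edgeR adjusted p = 0.0131).

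Both calls depended on the setting. Under upper quartile scaling, which lowers all log2 fold changes by a median of 0.05, Ythdf2 (0.09) and Ythdf3 (0.18) kept their sign and lost their calls. Ythdf2 also lost it without mock replicate 2 (0.08) or BMH21 replicate 1 (0.09) and in DESeq2 (0.13), and Ythdf3 without mock replicate 2 (0.19) or BMH21 replicate 2 (0.22). Ythdf1, known for promoting translation (ENSMUSG00000038848.15, chromosome 2, 180904377 to 180920949), was at 14.6 and 14.8 CPM in mock and at 15.2 and 13.4 CPM in BMH21. The 2 mock libraries lay between the 2 BMH21 libraries, and its log2 fold change was -0.04 ± 0.11 (SE; 95% interval -0.27 to 0.19; edgeR adjusted p = 0.854).

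The division of YTHDF mRNA between the paralogues shifted by small amounts. Per kb of exon, the share of Ythdf2 in the summed YTHDF counts was 65.4% ± 0.793 (SD, n = 2) for mock and 65.5% ± 0.190 (SD, n = 2) for BMH21. Ythdf3 took 20.7% ± 0.0897 and 22.2% ± 0.876, and Ythdf1 13.9% ± 0.704 and 12.3% ± 0.686. The libraries of Ythdf3 (20.7% and 20.8% in mock, 21.6% and 22.8% in BMH21) and those of Ythdf1 (13.4% and 14.4% in mock, 12.8% and 11.8% in BMH21) separated the groups without overlap, the first upwards and the second downwards, while those of Ythdf2 overlapped. Because the 3 shares make up a whole and that of Ythdf2 was level, the gain of Ythdf3 and the loss of Ythdf1 are not separate results. These shares were not tested. With 2 libraries a group, the smallest p that an exact two-sided permutation test can give is 0.333.

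**Figure D3:**
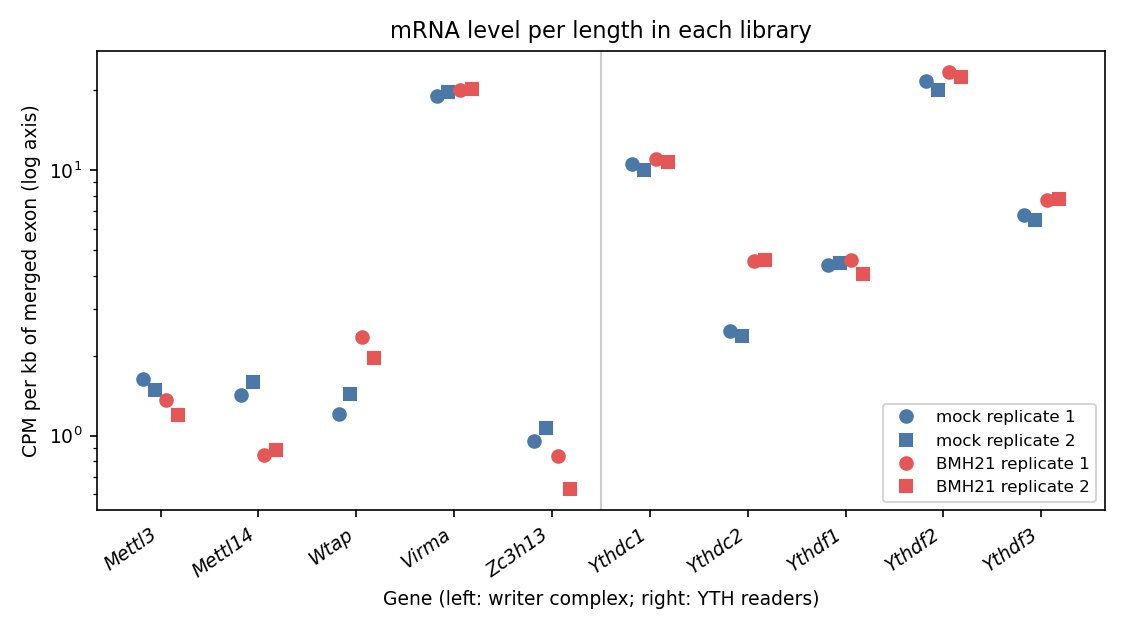
mRNA level of each gene in CPM per kb of merged exon (log axis) in the 4 libraries; blue is mock and red is BMH21, circles are replicate 1 and squares replicate 2. Ythdf2 and Virma lie between 19.0 and 23.5 CPM per kb in every library, while Mettl3, Mettl14, Wtap and Zc3h13 lie between 0.627 and 2.36.

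Scaled by length, the 10 mRNAs spread over more than an order of magnitude. In mock, Ythdf2 was highest at 20.9 CPM per kb of merged exon, followed by Virma at 19.4, Ythdc1 at 10.3, Ythdf3 at 6.63, Ythdf1 at 4.44 and Ythdc2 at 2.42. The remaining writers were lowest, with Mettl3 at 1.56, Mettl14 at 1.51, Wtap at 1.32 and Zc3h13 at 1.01 CPM per kb. Among neighbours in this order the mock libraries of Mettl3 and Mettl14 overlapped, as did those of Mettl14 and Wtap, while both Mettl3 libraries lay above both Wtap libraries. Within each mock library Mettl14 stood above Wtap (Wtap per Mettl14 0.848 and 0.898). The order of Mettl14 and Mettl3 differed between the mock libraries (Mettl14 per Mettl3 0.875 and 1.07). In BMH21, Ythdc2 (4.58) stood beside Ythdf1 (4.32), with libraries that overlapped, and Wtap (2.16) stood above Mettl3 (1.27), Mettl14 (0.863) and Zc3h13 (0.734). The merged exon length counts every annotated isoform, so a gene with long but little expressed isoforms would be placed too low. Which isoforms were expressed was not tested, for Ythdc1 with its 13651 bases or for any other gene.

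Virma and the catalytic pair were thus far apart at the mRNA level, although their proteins share a complex. Virma per Mettl3 was 11.7 and 13.3 in mock and 14.7 and 17.0 in BMH21, in counts per kb.

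**Figure D4:**
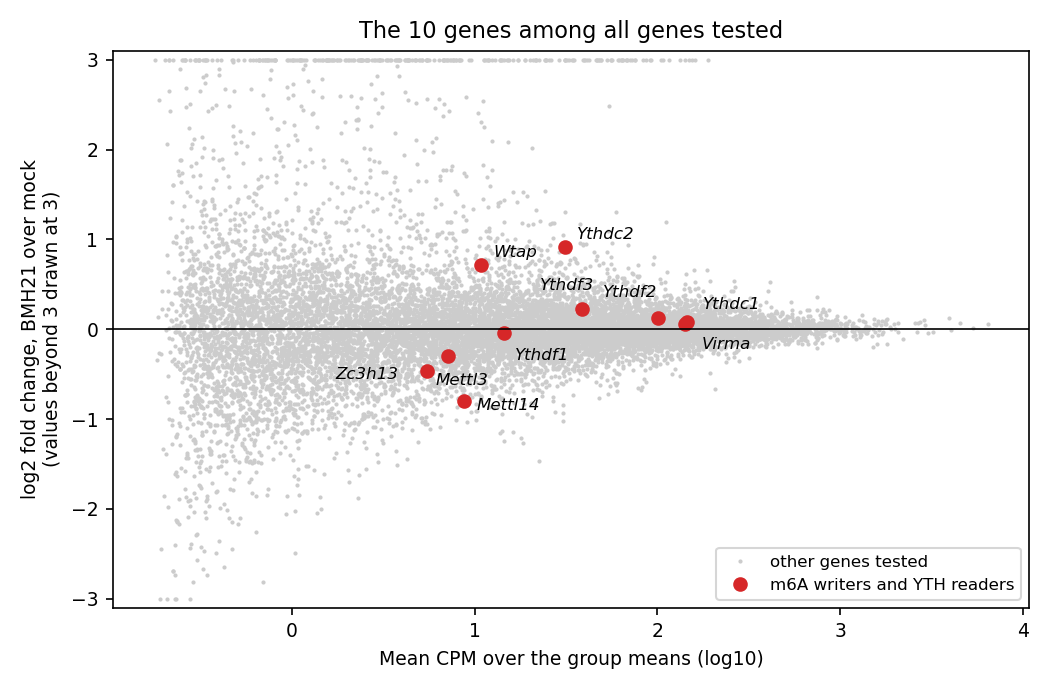
Log2 fold change, BMH21 over mock (y axis, values beyond 3 in size drawn at 3), against the log10 of the mean CPM (x axis) for all 13793 genes tested, with the 10 m6A genes in red. Ythdc2 (0.92), Wtap (0.72) and Mettl14 (-0.80) lie far from 0, and Virma (0.05) and Ythdc1 (0.09) close to it.

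A list of 28 other genes tied to the m6A pathway was described in the same way. Of the 28, all of which were tested, 12 rose, 1 fell and 15 did not pass the test, and the median log2 fold change was 0.08. Among all genes tested 16.5% were called higher and 12.5% lower, 29.1% in either direction. Of the 12 rises 2 were X-linked, on a chromosome where 251 of 343 tested genes (73.2%) were called higher. Under upper quartile scaling 9 rose and 3 fell. With 1 library left out, 8 rose without mock replicate 1 and 8 without replicate 2 of BMH21, 9 without mock replicate 2 and 11 without replicate 1 of BMH21, where 2 fell.

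Both erasers, the demethylases of m6A, rose slightly. Fto was at 82.3 and 83.1 CPM in mock and at 89.2 and 96.9 CPM in BMH21, a rise of 0.17 ± 0.05 (SE) on the log2 scale (edgeR adjusted p = 0.00562). Alkbh5, whose loss in mice impairs spermatogenesis, was at 94.98 and 94.5 CPM in mock and at 112 and 103 CPM in BMH21, a rise of 0.18 ± 0.05 (SE; edgeR adjusted p = 0.00169). In each gene the groups did not overlap, but Fto lost its call without BMH21 replicate 2 (0.11) and Alkbh5 without BMH21 replicate 1 (0.12).

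The writer partners Rbm15, Rbm15b and Cbll1, which bring the complex to RNA or bind to it, were not called. Rbm15 was at 73.2 and 75.0 CPM in mock and at 67.4 and 68.0 CPM in BMH21, with a log2 fold change of -0.13 ± 0.05 (SE; edgeR adjusted p = 0.0622); it was called lower under upper quartile scaling (-0.18) and with the stricter filter (-0.14). Of the other methyltransferase genes only Mettl16, which methylates U6 snRNA and hairpins in the Mat2a mRNA, was called, from 37.7 and 38.1 CPM in mock to 40.9 and 45.6 CPM in BMH21. Its rise of 0.19 ± 0.07 (SE; edgeR adjusted p = 0.0390) was lost under upper quartile scaling (0.15), in DESeq2 (0.19) and on leaving out either mock library (0.18 without replicate 1, 0.20 without replicate 2) or replicate 2 of BMH21 (0.11).

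The genes for the methyl donor S-adenosylmethionine went in opposite directions. Mat2a, the catalytic subunit of the synthetase, was at 50.7 and 47.8 CPM in mock and at 38.1 and 36.7 CPM in BMH21, a fall of 0.40 ± 0.07 (SE) on the log2 scale (edgeR adjusted p = 3.94e-06). Mat2b, its regulatory subunit, was at 4.53 and 3.81 CPM in mock and at 12.2 and 11.5 CPM in BMH21, and rose by 1.50 ± 0.15 (SE; edgeR adjusted p = 1.45e-12). Mat2a was the 1 gene of the list called lower and Mat2b the autosomal gene of the list with the largest called rise. Ahcy, the hydrolase that removes the product of methylation, had a log2 fold change of 0.19 and was not called (edgeR adjusted p = 0.0736).

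Of the partners of the YTH readers, Xrn1, the 5′-3′ exoribonuclease that binds YTHDC2, rose by 0.95 ± 0.07 (SE) on the log2 scale, from 27.0 and 28.4 CPM in mock to 53.3 and 53.9 CPM in BMH21 (edgeR adjusted p = 6.66e-18). That is close in size to the value of Ythdc2 itself, 0.92. Meioc, the meiotic partner of YTHDC2, was at 601 and 598 CPM in mock and at 597 and 624 CPM in BMH21. Its log2 fold change was 0.03 (95% interval -0.02 to 0.08; edgeR adjusted p = 0.495), with a negative sign under upper quartile scaling (-0.02). Rbm46, another RNA-binding partner of YTHDC2, had 0.03 and was not called (edgeR adjusted p = 0.730).

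Per kb of exon there were 52.6 and 54.7 Meioc counts for each Ythdc2 count in mock and 28.4 and 29.4 in BMH21. Upf1, the helicase of nonsense-mediated decay that also acts with YTHDF2, rose by 0.16 (edgeR adjusted p = 1.94e-06), and Cnot1, the scaffold of the CCR4-NOT deadenylase recruited by YTHDF2, by 0.06 (edgeR adjusted p = 0.00838). Cnot1 lost its call under upper quartile scaling (0.02) and without mock replicate 1 (0.07) or mock replicate 2 (0.06).

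Of the 9 other genes whose proteins are reported to read m6A, 5 rose, where 16.5% of all genes tested were called higher. Of these 5, 2 are X-linked, and 73.2% of the tested genes on that chromosome were called higher. Elavl1, which encodes an RNA-stabilising protein, rose by 0.29 (172 and 168 CPM in mock, 205 and 211 CPM in BMH21; edgeR adjusted p = 4.24e-10), and the splicing regulators Hnrnpc by 0.15 (edgeR adjusted p = 0.00277) and Hnrnpa2b1 by 0.07 (edgeR adjusted p = 0.0414). Hnrnpa2b1 lost its call in 6 of 12 alternatives, upper quartile scaling among them (0.03), and Hnrnpc without mock replicate 1 (0.13) or BMH21 replicate 2 (0.12). The other 2 were the X-linked Rbmx, from 0.238 and 0.384 to 5.19 and 5.67 CPM, and Fmr1, from 2.15 and 1.79 to 265 and 264 CPM. Igf2bp1, Igf2bp2, Igf2bp3 and Prrc2a were not called.

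For the 2 members with the smallest p, the 3 genes with the most similar profile were taken, by the distance between log2 values centred on each gene's mean over the 4 libraries. For Ythdc2, among 7310 candidates at or above a mean of 10 CPM, these were Rab18, Ccne2 and Mybbp1a, at distances of 0.05 to 0.06 on the log2 scale. Ccne2, a cyclin E gene, was at 27.6 and 25.7 CPM in mock and at 52.1 and 50.9 CPM in BMH21. For Mettl14 they were Polr3b, a subunit gene of RNA polymerase III, Mink1 and Gli3, at distances of 0.05, 0.06 and 0.08. Polr3b was at 24.4 and 27.8 CPM in mock and at 14.4 and 15.0 CPM in BMH21. Like Mettl14, it was higher in mock replicate 2 than in mock replicate 1, an order that the choice by closest profile favours. Likeness over 4 libraries of 2 groups rests mainly on the difference between the groups.

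**Figure D5:**
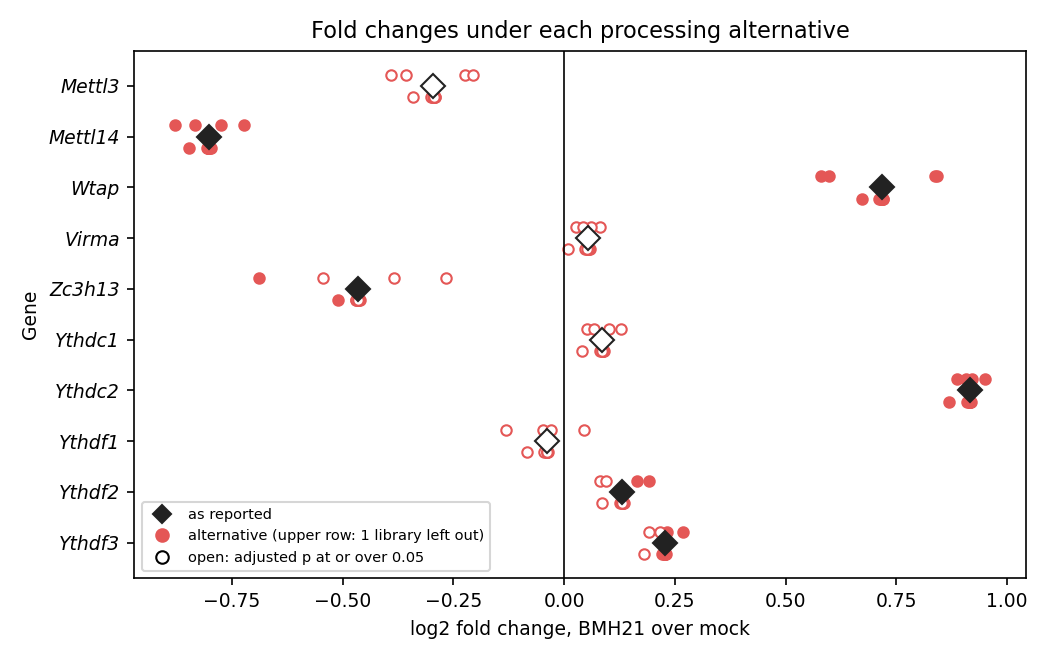
Log2 fold change of each gene, BMH21 over mock (x axis), as reported (black diamond) and under 12 alternatives (red circles; upper row with 1 library left out, lower row other settings); filled symbols have an adjusted p under 0.05 and open ones not. Mettl14, Wtap and Ythdc2 are filled throughout, Zc3h13, Ythdf2 and Ythdf3 are mixed, and the circles of Ythdf1 fall on both sides of 0.

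In the authors' deposited table, which is DESeq2 output, 0 of the 10 genes are marked as up or down, a mark it gives to 584 and 185 of 15733 genes (3.71% and 1.18%). The mark is on every gene that moved by 1 or more on the log2 scale at an unadjusted p under 0.05 in the authors' deposited table, and on no other. The authors' deposited table gives Ythdc2 a log2 fold change of 0.91 with an adjusted p of 5.96e-19, Mettl14 -0.80 with 1.70e-04 and Wtap 0.71 with 5.91e-04, all 3 short of that size.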

How the data were processed

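The labels name 4 RNA-seq libraries in 2 groups of 2, made with a stranded mRNA kit from TRIzol RNA, per the labels' protocols. The submitters' processing notes list build mm10 and fastp, STAR, SAMtools, featureCounts and DESeq2; versions, order, the strand setting and the treatment of reads with several matches are not given in the sources used here. The authors deposited raw read counts per gene, on which every test here was run. The size-factor-normalized values (signal) are the authors' and entered no test; the log2 fold changes, their Wald score and p-values were also deposited by the authors, and DESeq2 run here gave log2 fold changes within 2.83e-05 of theirs.

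Counts were tested in R 4.3.3 with edgeR 4.0.16 (filterByExpr, minimum count 10; TMM; quasi-likelihood test with group alone; Benjamini-Hochberg over 13793 genes). DESeq2 1.42.0 was an alternative. The SE is the size of the log2 fold change divided by the root of F, and 95% intervals use the test's degrees of freedom. On simulated counts for this comparison 13569 genes were tested. The test recovered 25 of the 50 genes changed 1.25-fold and 40 of the 50 changed 1.5-fold. It recovered 44 of the 50 changed 2-fold and all 50 changed 4-fold, and 5 of its 164 calls were false. Far fewer genes were changed there than the 29.1% called in the data, so these rates describe the simulated setting only. Replicates varied beyond sampling noise (chi-square over its degrees of freedom was 3.23 for mock and 3.78 for BMH21), and with 2 per group the spread is shared across genes. Depth limits the precision of the low genes: counting error was 4.53% to 8.28% a library for Mettl3, Mettl14, Wtap and Zc3h13.

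Gene positions, exon overlaps and merged exon lengths are from GENCODE M21 on GRCm38, by gene identifier, since the positions in the table were the same as these for 369 of 15670 matched genes only. Coding stretches are from GENCODE transcripts and the upstream window from RefSeq (GRCm38.p6), which held 6 of the 10 genes. The members and lists were chosen with earlier results of these data known. All members were named, and of the other pathway genes each called one plus Fto, Alkbh5, Rbm15 and Meioc; the remaining names were chosen after their values were seen. Profiles were compared as log2(CPM + 0.5).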

Additional observations from a re-analysis of the deposited data

How the results depend on the processing

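Mettl14, Wtap and Ythdc2 kept their direction and their call in all 12 alternatives, and Mettl3, Virma and Ythdc1 their direction and the absence of a call. With 1 library left out, Ythdf1 ran from -0.131 to 0.046 and Meioc from -0.010 to 0.056, both changing sign without BMH21 replicate 2, and Meioc was at -0.020 under upper quartile scaling; none of these was called. The count of members called higher, 4, was 2 under upper quartile scaling and 2 to 4 with 1 library left out, lowest without mock replicate 2. The count called lower, 2, was 1 with the replicate number as a block, in the robust fit and in DESeq2, and 1 to 2 with 1 library left out. Of the other pathway genes, 1 was called lower, against 3 under upper quartile scaling, 2 with a minimum count of 50 and 1 to 2 with 1 library left out. The cause of these changes was not tested.

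The labels share replicate numbers between groups, but same-numbered libraries did not deviate together (correlation 0.01 across 11602 genes), so the replicate block is only an alternative: Zc3h13 (-0.47) and Mettl16 (0.19) lost their calls under it, with 4 members higher, 1 lower and, over all genes, 2189 and 1595 calls. Without length scaling the YTHDF shares were 10.1% in mock and 8.90% in BMH21 for Ythdf1, 65.5% and 65.2% for Ythdf2, and 24.4% and 25.9% for Ythdf3. The small difference of Ythdf2 between the groups thus changed direction, from 65.4% in mock and 65.5% in BMH21 per kb of exon. With 1 library left out, an arm holds 1 library, which is assumed to vary like the others.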
